A study of Mus musculus with 4 samples.

Results

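Platelets recognise a damaged vessel wall and each other through a small set of surface glycoproteins, and they release chemokines from their alpha granules. The 9 genes described here encode these proteins: *Gp5*, *Gp1ba*, *Gp1bb* and *Gp9* of the GPIb-IX-V complex, the collagen receptor *Gp6*, the integrin subunits *Itga2b* and *Itgb3*, and the chemokines *Pf4* and *Ppbp*. They were chosen by name as a family, with earlier results of these data known, out of 18762 genes that could be measured. A gene value is the mean log2 signal of its probe sets, counting probe sets that the platform annotation assigns to that gene symbol alone and whose second-highest array value was 5.04 or more. Of 94 probe sets assigned to the 9 genes, 78 met this, and each gene kept at least 2. The probe sets nearest to the limit were one of *Itgb3* with a second-highest value of 5.12 inside it and one of *Gp6* with 4.87 outside it.

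RNA was taken from bone marrow cells of iSox7 mice, in which doxycycline switches on SOX7 together with GFP, and hybridised to 4 exon arrays. The cells had been passaged on irradiated OP9, a mouse bone marrow stromal line, with Kit ligand, Interleukin-7 and FLT3 ligand, and after 10 to 12 passages were sorted on SOX7::GFP and cKIT into SOX7::GFP high cells (2 arrays) and SOX7::GFP low cells (2 arrays). Both groups thus carry the transgene. The series description instead speaks of culture with and without doxycycline, the labels do not tie an array to doxycycline, and beside transgenic mice they name Ainv18, an embryonic stem cell line, as the parent. The study calls the arrays biological duplicates, but no source says that they came from separate cultures or animals, so that p-values measure the spread between these arrays only. No age or number of mice is given. *Sox7* itself had 9.52 and 9.63 in SOX7::GFP high cells, against 9.07 and 8.90 in SOX7::GFP low cells. The difference of 0.59 log2 units (SE 0.15) did not pass (adjusted p = 0.0859, limma). Its direction is that of the labels. SE here and below is limma's standard error. Gene values correlated at 0.961 between the SOX7::GFP high arrays, at 0.958 between the SOX7::GFP low arrays and at 0.859 to 0.865 between arrays of different groups.

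The GPIb-IX-V complex binds von Willebrand factor on exposed collagen and slows the platelet under flow. GPVI then binds collagen itself and signals through the Fc receptor gamma chain, and the resulting activation opens integrin αIIbβ3, encoded by *Itga2b* (CD41) and *Itgb3* (CD61), to fibrinogen, which links platelets together. *Pf4* (CXCL4) and *Ppbp* (the precursor of CXCL7) are stored in alpha granules. Most of these genes are switched on in megakaryocytes, the platelet-forming cells of the marrow, under factors of the GATA and ETS families, while *Itga2b* is also expressed in early haematopoietic progenitors and *Itgb3* in several other cell types.

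The genes lie at separate places in the mouse genome (GRCm38.p6), apart from *Pf4* and *Ppbp*, which are neighbours on chromosome 5. *Ppbp* lies at chr5:90768518-90770063 and *Pf4* at chr5:90772435-90773383, 2371 bases apart. *Gp5* lies at chr16:30307685-30310781, *Gp1bb* at chr16:18620319-18622403, *Gp1ba* at chr11:70639102-70643986, *Gp9* at chr6:87776131-87779786 and *Gp6* at chr7:4362853-4397851. *Itga2b* (chr11:102453297-102469883) and *Itgb3* (chr11:104608000-104670476) lie on the same chromosome. RefSeq promoter windows of 300 bases, 250 before and 50 after the start, were matched for 8 of the 9 genes. The first window of each gene was used, and its start need not be the edge of the gene span given above. For *Gp9* the window (chr6:87777820-87778119) lay inside the span. For *Gp6* (chr7:4397745-4397994) and *Gp1ba* (chr11:70638872-70639121) the bases before the start ran into it. The bases before the start are shown for the 4 genes below because these genes were called higher in SOX7::GFP high cells and had a window. Each reads 5′ to 3′ on the gene's own strand and ends at the start site, and capitals mark short motifs on either strand: GATAA, which factors of the GATA family recognise, GGAAG for factors of the ETS family and ACAAT for those of the SOX family, with matches on the reverse strand shown as they read on the gene's strand. The *Gp5* bases are chr16:30310782-30311031 and the *Itga2b* bases chr11:102469884-102470133, both on the minus strand, and the *Pf4* bases are chr5:90772185-90772434 and the *Ppbp* bases chr5:90768268-90768517, both on the plus strand.
Gp5: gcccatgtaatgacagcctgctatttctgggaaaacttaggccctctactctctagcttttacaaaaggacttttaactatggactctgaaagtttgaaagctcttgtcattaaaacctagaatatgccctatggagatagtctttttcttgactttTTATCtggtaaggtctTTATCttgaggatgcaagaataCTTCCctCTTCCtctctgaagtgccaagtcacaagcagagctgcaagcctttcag
Itga2b: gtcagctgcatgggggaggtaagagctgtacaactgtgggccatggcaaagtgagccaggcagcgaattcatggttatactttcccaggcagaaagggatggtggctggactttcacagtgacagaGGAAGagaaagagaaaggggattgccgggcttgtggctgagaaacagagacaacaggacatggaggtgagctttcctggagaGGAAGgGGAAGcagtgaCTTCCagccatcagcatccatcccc
Pf4: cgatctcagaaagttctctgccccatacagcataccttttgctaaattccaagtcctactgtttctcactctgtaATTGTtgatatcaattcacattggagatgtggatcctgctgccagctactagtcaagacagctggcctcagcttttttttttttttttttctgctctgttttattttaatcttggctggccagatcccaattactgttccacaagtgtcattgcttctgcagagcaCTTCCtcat
Ppbp: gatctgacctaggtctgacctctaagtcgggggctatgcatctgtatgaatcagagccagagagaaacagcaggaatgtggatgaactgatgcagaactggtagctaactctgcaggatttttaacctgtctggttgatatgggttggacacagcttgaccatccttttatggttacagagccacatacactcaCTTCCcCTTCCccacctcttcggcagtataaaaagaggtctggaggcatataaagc

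Over the full windows, GGAAG stood in 8 of 8 members, against 71.1% of 26994 promoters in the table. GATAA stood in 5 of 8 members (*Gp5*, *Gp1ba*, *Gp9*, *Gp6* and *Pf4*), against 25.8% of promoters. Both stood together in the same 5 members, against 17.4% of promoters. As every member window held GGAAG, this count repeats that of GATAA and is no further finding. ACAAT stood in 1 of 8 members, *Pf4*, against 31.6% of promoters. None of the 26 matches overlapped another. *Gp5* had 2 GATAA matches, beginning at -93 and -77 from the start, and 2 GGAAG matches closer to it. *Itga2b* had 4 GGAAG matches and no GATAA in this window, and the only GATAA of *Pf4* lay after the start, outside the bases shown. *Gp6* also held GATAA, at -143. These are matches of letters and not binding sites.

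*Gp5* of the GPIb-IX-V complex, both integrin subunits and both chemokines were called higher in SOX7::GFP high cells. *Gp1ba*, *Gp1bb* and *Gp9* of the complex were higher but did not pass, and *Gp6* had overlapping groups. Of the 9 genes, 5 were called higher at an adjusted p under 0.05 (limma, Benjamini-Hochberg over all genes) and a change of at least 2-fold: *Gp5*, *Itga2b*, *Pf4*, *Itgb3* and *Ppbp*. None was called lower. Over all genes tested, 3.61% were called higher and 3.24% lower. Both SOX7::GFP high arrays lay above both SOX7::GFP low arrays for 8 of the 9 genes, against 32.2% of all genes. A change of at least 2-fold was found for 8, and the smallest of these rises, that of *Gp9*, ranked 735th of 18762 genes. The median log2 fold change of the 9 genes was 1.80, against 0.05 over all genes. As the 9 genes were chosen with earlier results of these data known, these comparisons describe them and test nothing. The cells were sorted but measured in bulk, so that more cells of a type and more RNA per cell cannot be told apart.

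**Figure D1:**
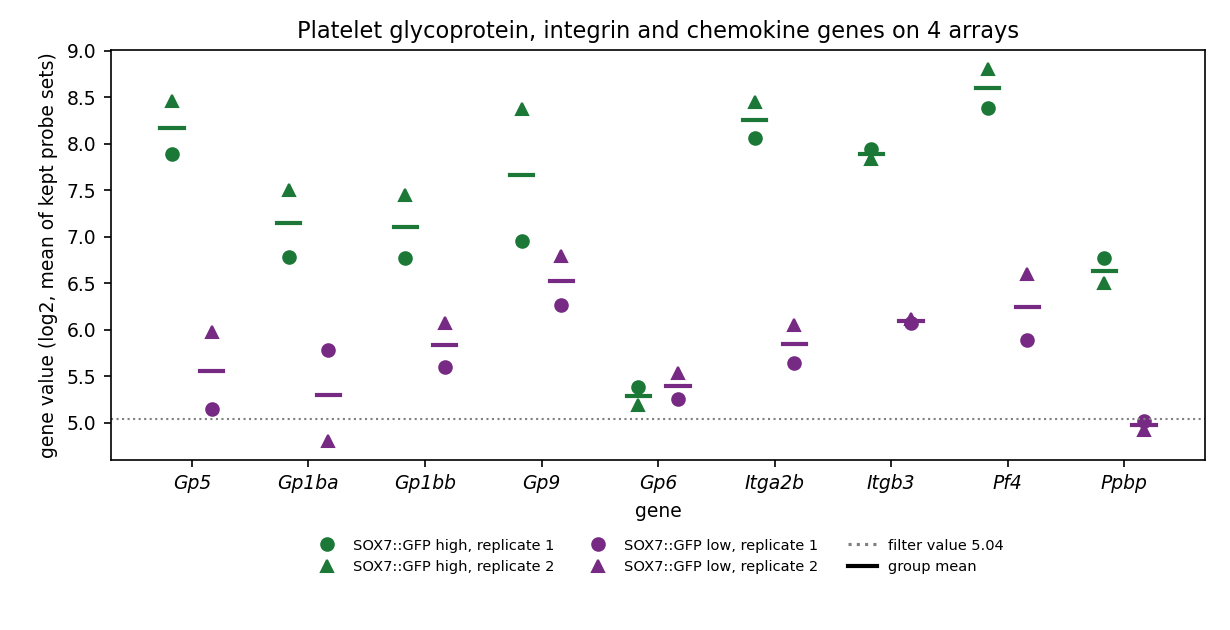
Gene values of the 9 genes (log2, mean of kept probe sets) on the 4 arrays, with SOX7::GFP high on the left and SOX7::GFP low on the right of each gene, circles for replicate 1, triangles for replicate 2 and bars for the group means. The SOX7::GFP high arrays lie above the SOX7::GFP low arrays for every gene but *Gp6*. *Ppbp*, *Gp1ba*, *Gp5* and *Gp6* reach or approach the filter value of 5.04 (dotted line).

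In the GPIb-IX-V complex the largest change was that of *Gp5*, the glycoprotein V subunit, which thrombin cleaves. *Gp5* had 7.90 and 8.46 in SOX7::GFP high cells, against 5.15 and 5.97 in SOX7::GFP low cells. The lower SOX7::GFP high array thus lay 1.92 log2 units above the higher SOX7::GFP low array. The means were 8.18 ± 0.40 in SOX7::GFP high cells, against 5.56 ± 0.58 in SOX7::GFP low cells (SD, n = 2 arrays each), a difference of 2.62 log2 units (SE 0.35) or 6.13-fold (adjusted p = 0.0191, limma). This was the 105th largest rise of all genes tested. Its 2 probe sets differed by 2.49 and 2.74, and both were called.

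*Gp1ba* encodes the subunit of the complex that carries the von Willebrand factor binding site. It had 6.78 and 7.51 in SOX7::GFP high cells, against 5.79 and 4.80 in SOX7::GFP low cells. The groups did not overlap, but the SOX7::GFP high arrays lay 0.72 and the SOX7::GFP low arrays 0.99 apart. The difference of 1.85 log2 units (SE 0.42) did not pass (adjusted p = 0.0675, limma). Its 3 probe sets differed unequally. One had 7.36 and 8.14 in SOX7::GFP high cells, against 5.06 and 5.26 in SOX7::GFP low cells, and was called, whereas another had 7.59 and 7.80 in SOX7::GFP high cells, against 7.46 and 6.32 in SOX7::GFP low cells. With the median of the probe sets in place of the mean, the log2 fold change was 2.42 and passed (adjusted p = 0.00576, limma).

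*Gp1bb*, whose product is linked to that of *Gp1ba* by disulphide bonds, had 6.77 and 7.45 in SOX7::GFP high cells, against 5.60 and 6.07 in SOX7::GFP low cells. The groups did not overlap, and the difference of 1.27 log2 units (SE 0.30) did not pass (adjusted p = 0.0737, limma). Its 6 kept probe sets fell apart into 3 with a difference of at least 2-fold and 3 with overlapping groups, and 1 was called. The probe set with the largest difference had 8.71 and 9.29 in SOX7::GFP high cells, against 5.58 and 6.48 in SOX7::GFP low cells. The next had 6.32 and 7.36 in SOX7::GFP high cells, against 3.61 and 4.67 in SOX7::GFP low cells. A flat one had 5.96 and 6.26 in SOX7::GFP high cells, against 6.52 and 6.12 in SOX7::GFP low cells. *Gp1bb* overlaps the neighbouring *Septin5* by 593 bases, and 11 further probe sets that the annotation gives to both genes were left out. Their differences ran from -0.84 to 1.56, and in 1 of them both SOX7::GFP high arrays lay above both SOX7::GFP low arrays, in 1 below them. *Septin5* itself differed by -0.09 log2 units (adjusted p = 0.908, limma). How signal is shared between the overlapping genes was not tested.

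*Gp9*, the subunit that holds the complex together at the surface, had 6.96 and 8.37 in SOX7::GFP high cells, against 6.26 and 6.80 in SOX7::GFP low cells. The SOX7::GFP high arrays were 1.41 apart, the widest spread among the 9 genes, and only 0.16 separated the groups. Its difference of 1.14 log2 units (SE 0.51) did not pass (adjusted p = 0.267, limma), and none of its 3 kept probe sets was called. Without replicate 2 of SOX7::GFP high cells the log2 fold change was 0.43. The same array was the higher of its group for 6 of the 9 genes, among them all 4 genes of the complex. Of all genes, it was the higher for 50.4%. In SOX7::GFP low cells replicate 2 was the higher for 7 of the 9 genes, against 36.2% of all genes. *Gp5*, *Gp1bb*, *Gp9*, *Itga2b* and *Pf4* had replicate 2 as the higher in both groups, the other members did not. On replicate 2 of SOX7::GFP high cells the summed linear signal of 8 B-lineage markers was 1178, against 556 on the other SOX7::GFP high array. That of 9 mast cell and basophil markers was 4317, against 6954, and that of 6 erythroid markers 775, against 708. In SOX7::GFP low cells the B-lineage sum was 15705 on replicate 2, against 16536 on replicate 1. There the mast cell and basophil sum was 1152, against 1446, and the erythroid sum 868, against 627. Of these sums only the erythroid one was higher on replicate 2 in both groups. The part of these differences in the *Gp9* values was not tested.

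*Gp6* encodes the platelet collagen receptor and was the one member with overlapping groups. It had 5.39 and 5.19 in SOX7::GFP high cells, against 5.26 and 5.54 in SOX7::GFP low cells. It had a difference of -0.11 log2 units (SE 0.17, adjusted p = 0.762, limma). Of its 11 probe sets 8 fell under the filter, and the values of all 11 ran from 2.23 to 6.17, around the array medians of 3.90 to 3.91 over all probe sets. No change was detectable at this signal.

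The signalling proteins that act below GPVI and GPIb are shared with other blood cells. Of 14 listed genes 13 were measured, 5 were called higher, 1 lower and 7 did not pass, with a median log2 fold change of 0.53. Among all genes 3.61% were called higher and 3.24% lower. *Fcer1g*, the Fc receptor gamma chain through which GPVI signals, had 11.45 and 11.32 in SOX7::GFP high cells, against 9.76 and 9.94 in SOX7::GFP low cells (log2 fold change 1.54, SE 0.15, adjusted p = 0.00961, limma). The adaptor *Lcp2* (SLP-76) had 9.59 and 9.58 in SOX7::GFP high cells, against 7.34 and 7.55 in SOX7::GFP low cells (log2 fold change 2.14, adjusted p = 0.00560, limma). Both SOX7::GFP high arrays lay above both SOX7::GFP low arrays for each of these genes, and *Fcer1g* also serves the IgE receptor of mast cells and basophils. The adaptor *Lat* (log2 fold change 2.01), the kinase subunit *Pik3cb* (1.41) and the exchange factor *Vav3* (1.35) were called higher too. The Src family kinase *Fyn* was the gene called lower, with 6.77 and 6.72 in SOX7::GFP high cells, against 7.71 and 7.99 in SOX7::GFP low cells (log2 fold change -1.10). *Syk*, the kinase recruited to the gamma chain, had a log2 fold change of -0.94 that did not pass (adjusted p = 0.0530, limma). With 1 array left out, 1 to 3 of the 13 genes were called higher and none lower, and *Lcp2* was called in each of the 4 fits.

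Integrin αIIb, *Itga2b*, was the gene with most probe sets. It had 8.06 and 8.44 in SOX7::GFP high cells, against 5.65 and 6.05 in SOX7::GFP low cells. The groups lay 2.01 apart, with 0.38 between the SOX7::GFP high arrays and 0.41 between the SOX7::GFP low arrays. The means were 8.25 ± 0.27 in SOX7::GFP high cells, against 5.85 ± 0.29 in SOX7::GFP low cells (SD, n = 2 arrays each), and the difference was 2.40 log2 units (SE 0.22) or 5.29-fold (adjusted p = 0.00847, limma). Of its 36 kept probe sets 35 had both SOX7::GFP high arrays on top and 22 were called. Of all probe sets tested, 30.3% had both on top and 2.25% were called higher. The difference was at least 2-fold in 31 of the 36 and at least 4-fold in 27, and ran from 0.52 to 4.30. Of the 36, 4 reached the filter value on SOX7::GFP high arrays alone and so had to differ, and all 4 were called. Of the other 32, 31 had both SOX7::GFP high arrays on top and 18 were called. The brightest probe set had 11.35 and 11.81 in SOX7::GFP high cells, against 8.13 and 9.15 in SOX7::GFP low cells.

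Integrin β3, *Itgb3*, had the closest replicates. It had 7.94 and 7.84 in SOX7::GFP high cells, against 6.07 and 6.12 in SOX7::GFP low cells. With 0.11 or less between arrays of a group and 1.72 between the groups, its difference of 1.80 log2 units (SE 0.14) or 3.47-fold had the smallest adjusted p of the 9 genes (0.00612, limma). Of its 15 kept probe sets 14 had both SOX7::GFP high arrays on top, 12 differed by at least 2-fold and 10 were called. Of the 15, 3 reached the filter value on SOX7::GFP high arrays alone and so had to differ, and all 3 were called. Of the other 12, 11 had both SOX7::GFP high arrays on top and 7 were called. The shares over all probe sets were 30.3% on top and 2.25% called higher. One probe set was flat, with 7.41 and 7.51 in SOX7::GFP high cells, against 7.61 and 7.43 in SOX7::GFP low cells. The difference between the changes of the 2 subunits was not tested.

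Of 12 listed genes that activate the integrin from inside the cell, all were measured and none was called higher (2 had an unadjusted p under 0.05 in either direction). The median log2 fold change was -0.07. Talin, *Tln1*, which binds the β3 tail, had 8.87 and 8.74 in SOX7::GFP high cells, against 8.42 and 8.37 in SOX7::GFP low cells, a difference of 0.41 log2 units (adjusted p = 0.165, limma). *Rasgrp2* (CalDAG-GEFI), the exchange factor that switches on Rap1 in platelets, was called lower. It had 7.35 and 7.04 in SOX7::GFP high cells, against 9.24 and 9.02 in SOX7::GFP low cells (log2 fold change -1.94, SE 0.18, adjusted p = 0.00858, limma). It was not called without replicate 2 of SOX7::GFP high cells. Trend-robust limma called the same number of genes on this list. After adjustment the methods' own test called no gene of the whole table, so it cannot decide here.

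The platelet chemokines were both called higher. *Pf4* had 8.39 and 8.80 in SOX7::GFP high cells, against 5.90 and 6.60 in SOX7::GFP low cells. The groups lay 1.79 apart, and the difference was 2.35 log2 units (SE 0.30) or 5.10-fold (adjusted p = 0.0164, limma). All 6 probe sets had SOX7::GFP high arrays on top by 1.69 to 3.31, although 1 alone was called at the level of probe sets. The called one had the largest difference and reached the filter value on SOX7::GFP high arrays alone, so that it had to differ. None of the other 5 was called.

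*Ppbp* had 6.77 and 6.50 in SOX7::GFP high cells, against 5.02 and 4.93 in SOX7::GFP low cells. The groups lay 1.48 apart, with a difference of 1.66 log2 units (SE 0.16) or 3.16-fold (adjusted p = 0.00930, limma). The probe sets carried this unequally. One had 7.22 and 6.55 in SOX7::GFP high cells, against 3.24 and 3.59 in SOX7::GFP low cells, and a second had 6.18 and 5.52 in SOX7::GFP high cells, against 3.39 and 3.61 in SOX7::GFP low cells. Another had 6.95 and 6.86 in SOX7::GFP high cells, against 7.21 and 6.79 in SOX7::GFP low cells, so that its groups overlapped. The SOX7::GFP low values of the first 2 probe sets lay under the filter value. When probe sets had to reach 5.04 on all 4 arrays these 2 were lost, and the log2 fold change of *Ppbp* was 0.42 (adjusted p = 0.260, limma).

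Beside *Pf4* and *Ppbp*, the other chemokine genes of this cluster on chromosome 5 did not pass. The 5 listed CXC chemokines of the same cluster were *Cxcl1*, *Cxcl2*, *Cxcl3*, *Cxcl5* and *Cxcl15*. None was called in either direction by limma or by trend-robust limma, and none had an unadjusted p under 0.05 (limma). The methods' own test cannot decide here, because after adjustment it called no gene of the whole table. Their log2 fold changes ran from -0.40 (*Cxcl1*) to 0.26 (*Cxcl15*). *Cxcl3*, the next gene after *Pf4*, had 8.34 and 8.43 in SOX7::GFP high cells, against 8.25 and 8.51 in SOX7::GFP low cells. *Cxcl5*, the gene before *Ppbp*, had 5.63 and 5.81 in SOX7::GFP high cells, against 5.41 and 5.56 in SOX7::GFP low cells. Of the neighbours measured beside the other members, *Rab43* next to *Gp9* was called lower (log2 fold change -1.21, adjusted p = 0.0342, limma) and no other was called.

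**Figure D2:**
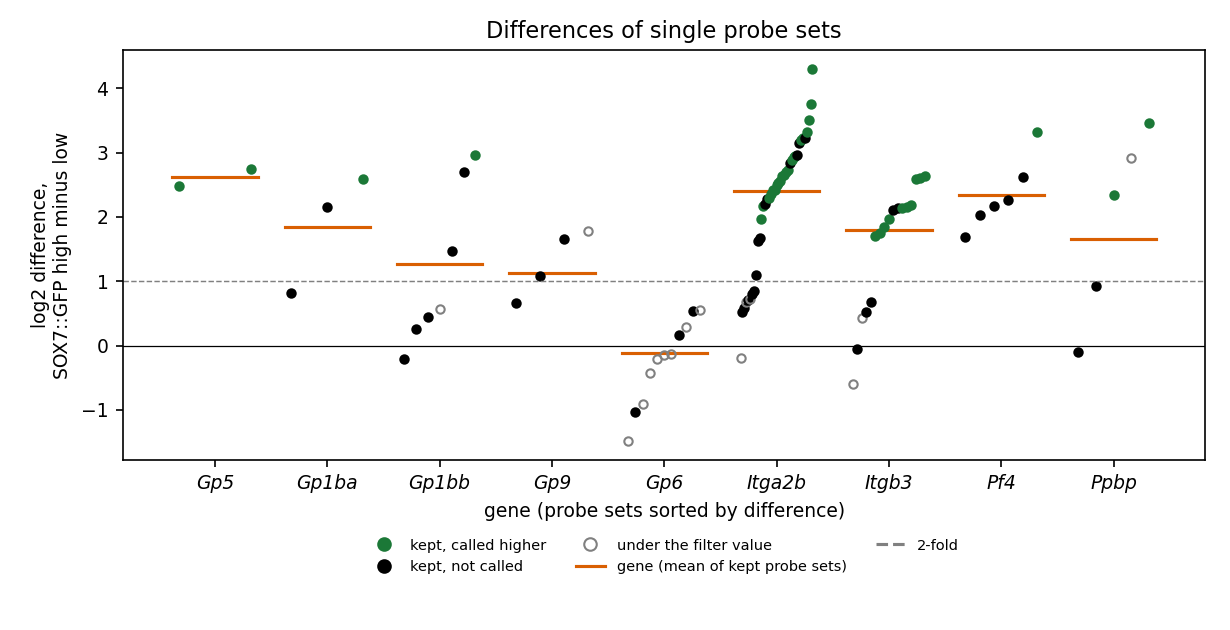
Log2 difference (SOX7::GFP high minus SOX7::GFP low) of every probe set of the 9 genes, sorted within each gene, with green points called higher, black points kept but not called, open points under the filter value and orange bars for the gene. Nearly all *Itga2b*, *Itgb3* and *Pf4* points lie well above 0, whereas *Gp1bb* and *Ppbp* hold both flat probe sets and probe sets with differences near 3, and the *Gp6* points scatter around 0.

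Over the 78 kept probe sets of the 9 genes, 39 were called higher and none lower, against 2.25% called higher of 191615 probe sets tested. Both SOX7::GFP high arrays lay on top in 69 of the 78, against 30.3% of all. The difference was at least 2-fold in 60, a count with no share over all probe sets to set beside it. In SOX7::GFP high cells 4 were lower, one each of *Gp1bb*, *Gp6*, *Itgb3* and *Ppbp*. Of the 78, 13 reached the filter value on SOX7::GFP high arrays alone and so had to differ. Of the other 65, 29 were called higher, and in 56 both SOX7::GFP high arrays lay on top. Probe sets of a gene share the same RNA and are not replicates.

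Leaving out 1 array changed the calls more than the values. Without replicate 1 of SOX7::GFP high cells none of the 9 genes was called, although 8 had an unadjusted p under 0.05 (limma), and without replicate 2 of SOX7::GFP high cells 2 were called, *Itgb3* and *Ppbp*. Without either SOX7::GFP low array the same 5 genes were called. The log2 fold change stayed between 1.74 and 1.85 for *Itgb3*, between 1.53 and 1.80 for *Ppbp* and between 2.20 and 2.61 for *Itga2b*. *Gp5* gave 2.20 to 3.03, *Pf4* gave 2.00 to 2.70 and *Gp9* gave 0.43 to 1.84. Over all genes the number called was 1286 with 4 arrays and 311 to 717 with 3.

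**Figure D3:**
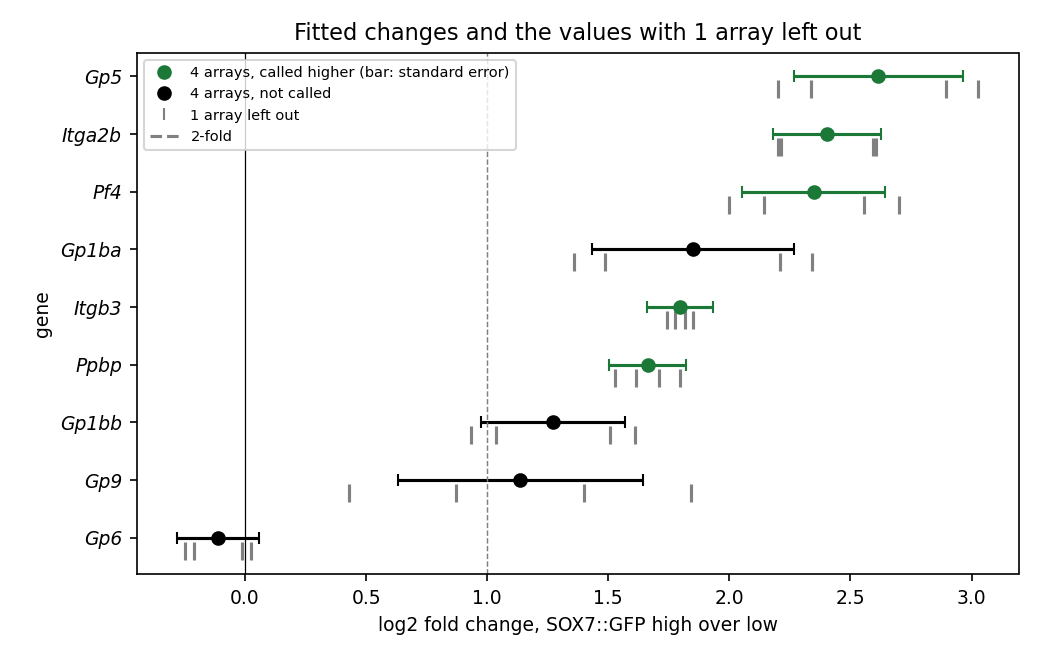
Log2 fold change (SOX7::GFP high over SOX7::GFP low) of the 9 genes with limma's standard error as a bar, green where called, and grey ticks for the values with 1 array left out. The ticks of *Itgb3* stay within 1.74 to 1.85, those of *Gp9* spread from 0.43 to 1.84, and those of *Gp6* lie on both sides of 0.

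Other receptors of the platelet surface moved in both directions. Of 23 listed genes, all measured, 9 were called higher, 3 lower and 11 did not pass, with a median log2 fold change of 1.10. Over all genes 3.61% were called higher and 3.24% lower. The collagen-binding integrin subunit *Itga2* had 6.20 and 6.56 in SOX7::GFP high cells, against 3.89 and 4.10 in SOX7::GFP low cells (log2 fold change 2.38, adjusted p = 0.00627, limma). Its SOX7::GFP low values lay under the filter value and near the array medians of 3.90 to 3.91, so that *Itga2* passed the filter through the SOX7::GFP high arrays alone and the size of its change is not well set. *Cd226*, called higher too (1.82), had 5.45 and 5.36 in SOX7::GFP high cells, against 3.45 and 3.71 in SOX7::GFP low cells. These SOX7::GFP low values also lay under the filter value. The junction protein *Esam* (2.72) and the tetraspanin *Cd9* (2.12) were also called higher, as were the thrombin receptor *F2rl3* (2.02) and the ADP receptor *P2ry1* (1.94). The genes called lower were the scavenger receptor *Cd36* (-2.81), the thromboxane receptor *Tbxa2r* (-1.59) and the second ADP receptor *P2ry12* (-1.18), whose SOX7::GFP high values lay under the filter value. *Cd36* had 5.23 and 4.95 in SOX7::GFP high cells, against 7.89 and 7.91 in SOX7::GFP low cells. *Selp*, P-selectin of the alpha granule membrane, had 6.15 and 6.76 in SOX7::GFP high cells, against 5.08 and 5.64 in SOX7::GFP low cells (log2 fold change 1.10), and did not pass (adjusted p = 0.105, limma). *Clec1b* (CLEC-2), the podoplanin receptor, had 5.79 and 4.41 in SOX7::GFP high cells, against 5.27 and 5.93 in SOX7::GFP low cells, with overlapping groups. With 1 array left out, 2 to 6 of the list were called higher and 1 to 3 lower. *Cd9* and *Cd36* were called in each of those fits, whereas *Esam* was called in 1 of 4.

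Genes of platelet granules, the platelet cytoskeleton and thromboxane synthesis changed in part. Of 24 listed genes 22 were measured, 6 were called higher, none lower and 16 did not pass, with a median log2 fold change of 0.34. The shares over all genes were 3.61% higher and 3.24% lower. *Gng11*, a G-protein gamma subunit abundant in platelets, had 7.84 and 8.72 in SOX7::GFP high cells, against 5.32 and 5.66 in SOX7::GFP low cells (log2 fold change 2.79, adjusted p = 0.0147, limma). *Pdgfb*, a growth factor chain of alpha granules, had 8.01 and 7.81 in SOX7::GFP high cells, against 5.53 and 5.60 in SOX7::GFP low cells (log2 fold change 2.34, adjusted p = 0.00463, limma). Pleckstrin, *Plek* (1.61), and coagulation factor V, *F5* (1.37), were called higher as well. So was *Rab27b* (1.09), whose SOX7::GFP low values of 4.92 and 4.89 lay under the filter value. *Vwf*, the ligand of the GPIb-IX-V complex, which is itself stored in alpha granules, had 6.06 and 6.78 in SOX7::GFP high cells, against 5.92 and 6.16 in SOX7::GFP low cells. Its groups overlapped (log2 fold change 0.38, adjusted p = 0.490, limma). With any 1 array left out, 2 genes of this list were called higher. *Pdgfb* was called in each of these fits and *F5* in none.

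Of 18 listed transcription factors of megakaryocytes, all measured, 5 were called higher and 2 lower, with a median log2 fold change of -0.01. The shares over all genes were 3.61% and 3.24%. *Gata2* had 8.66 and 8.62 in SOX7::GFP high cells, against 5.91 and 6.24 in SOX7::GFP low cells (log2 fold change 2.57, adjusted p = 0.00513, limma). *Meis1* had 7.71 and 8.12 in SOX7::GFP high cells, against 4.58 and 5.81 in SOX7::GFP low cells (log2 fold change 2.72, adjusted p = 0.0310, limma). The repressor *Gfi1b* (1.57), the globin and platelet gene regulator *Nfe2* (1.22) and *Tal1* (1.06) were called higher. The ETS factor *Erg* was called lower, with 7.59 and 7.58 in SOX7::GFP high cells, against 9.68 and 9.45 in SOX7::GFP low cells (log2 fold change -1.98), and so was *Mef2c* (-1.25). *Gata1*, the main GATA factor of maturing megakaryocytes and red cells, had 6.13 and 6.33 in SOX7::GFP high cells, against 4.63 and 5.77 in SOX7::GFP low cells, and did not pass (log2 fold change 1.03, adjusted p = 0.209, limma). The ETS factor *Fli1* differed by 0.23 log2 units (adjusted p = 0.383, limma). With 1 array left out, 1 to 4 of the list were called higher and 0 to 1 lower, and *Gata2* was called in each fit.

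Of 11 listed Jak-Stat genes that act below megakaryocyte cytokines 10 were measured and none was called, with 6 at an unadjusted p under 0.05 (limma). *Stat3* had a log2 fold change of 0.82 and *Sh2b3* (LNK), which restrains this signalling, one of -0.82. Trend-robust limma called none of this list either. The methods' own test called no gene of the whole table after adjustment and so cannot decide here.

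**Figure D4:**
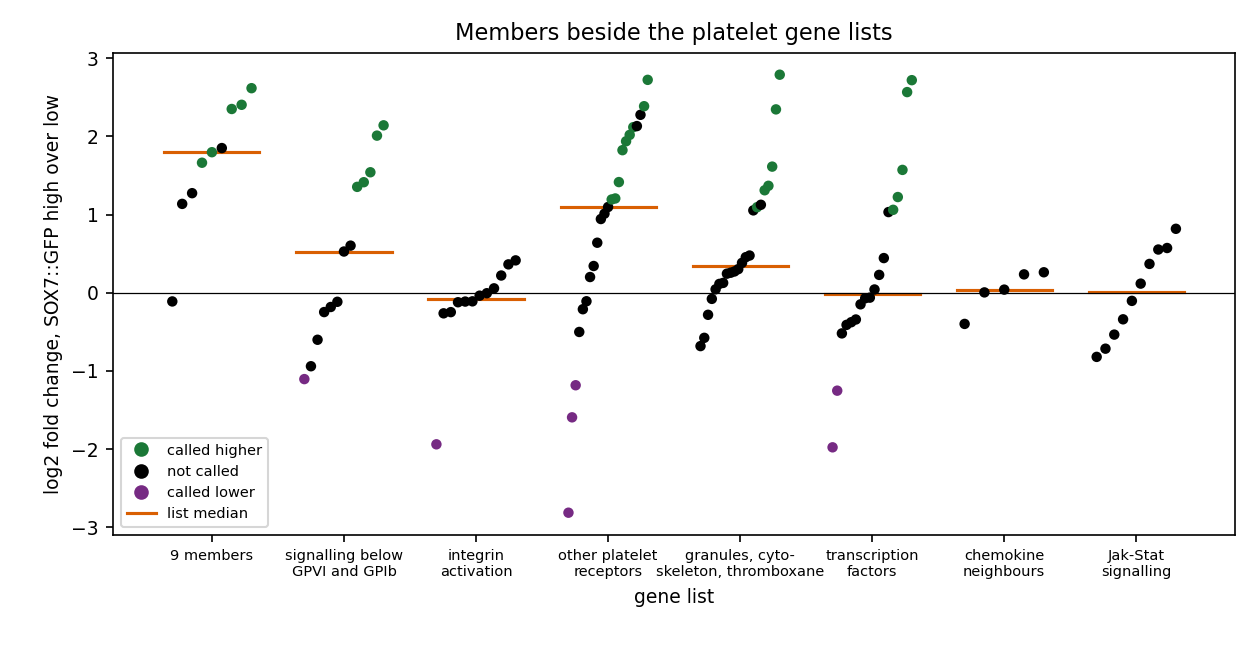
Log2 fold changes (SOX7::GFP high over SOX7::GFP low) of the 9 genes and of 7 lists of genes that work with them, one point per gene sorted within each list, green where called higher, purple where called lower, with the list median in orange. The median is 1.80 for the 9 genes and 1.10 for other platelet receptors, and lies between -0.07 and 0.53 for the other lists.

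Markers of other cells that the sort could hold, and that share some of these genes, moved as follows. Over all genes 3.61% were called higher and 3.24% lower. Of 9 measured mast cell and basophil markers 3 were called higher, *Cpa3* (log2 fold change 3.20), *Mcpt8* (2.25) and *Fcer1a* (2.24). The basophil marker *Prss34* had 5.81 and 5.80 in SOX7::GFP high cells, against 6.60 and 6.89 in SOX7::GFP low cells (log2 fold change -0.94, adjusted p = 0.0352, limma), short of 2-fold, and *Slc6a4* had a log2 fold change of -0.05. The summed linear signal of the 9, to which *Mcpt8* and *Cpa3* gave most, was 4317 to 6954 in SOX7::GFP high cells, against 1152 to 1446 in SOX7::GFP low cells. Of 7 measured stem and progenitor markers 5 were called higher, *Angpt1* (2.98), *Meis1* (2.72), *Cd34* (2.65), *Gata2* (2.57) and *Flt3* (2.10), with sums of 3577 to 4194 in SOX7::GFP high cells, against 1352 to 1597 in SOX7::GFP low cells. All 8 B-lineage markers were called lower, *Rag1* (-4.85), *Vpreb3* (-4.82), *Blnk* (-4.70) and *Ebf1* (-4.55) by most, with a median log2 fold change of -4.51 and sums of 556 to 1178 in SOX7::GFP high cells, against 15705 to 16536 in SOX7::GFP low cells. Of 7 measured endothelial markers *Cdh5* (2.78), *Tek* (2.73) and *Pecam1* (1.41) were called higher and *Kdr* (-1.63) lower, *Tek* with SOX7::GFP low values and *Kdr* with SOX7::GFP high values under the filter value, with sums of 1744 to 1794 in SOX7::GFP high cells, against 907 to 1313 in SOX7::GFP low cells. With 1 array left out, 1 to 2 of the mast cell and basophil markers and 2 to 4 of the stem and progenitor markers were called higher, 4 to 8 B-lineage markers were called lower, and *Mcpt8* and *Pecam1* were called in none of the 4 fits. The part of these cells in the platelet gene values was not tested.

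No list of macrophage and osteoclast, erythroid or OP9 stroma markers held a called gene by limma or by trend-robust limma. The methods' own test adds nothing to this, because after adjustment it called no gene of the whole table. At an unadjusted p under 0.05 (limma) there were 2 of 8 macrophage and osteoclast, 0 of 6 erythroid and 1 of 7 stroma markers. The summed linear signal of macrophage and osteoclast markers was 450 to 637 in SOX7::GFP high cells, against 497 to 676 in SOX7::GFP low cells. That of erythroid markers was 708 to 775 in SOX7::GFP high cells, against 627 to 868 in SOX7::GFP low cells, and that of stroma markers 613 to 690 in SOX7::GFP high cells, against 415 to 754 in SOX7::GFP low cells. The sums of the groups overlapped in each case. The largest changes on these lists were those of *Adgre1* (log2 fold change -0.71) and *Cd163* (0.70) of macrophages, *Pdgfrb* (0.87) and *Dcn* (0.47) of stroma, and *Klf1* (0.63) and *Epor* (0.53) of red cell precursors, and none of them passed. *Klf1*, a transcription factor of red cells, had 5.65 and 5.91 in SOX7::GFP high cells, against 4.27 and 6.03 in SOX7::GFP low cells, with overlapping groups.

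The genes whose pattern over the 4 arrays was most like the mean of the 5 called members, by the Euclidean distance of values centred on each gene's mean, were *Muc13* (distance 0.14), *Fndc5* (0.17), *Gcnt3* (0.17), *Lcp2* (0.18) and *Spa17* (0.19). *Muc13* had 9.82 and 9.92 in SOX7::GFP high cells, against 7.59 and 7.79 in SOX7::GFP low cells (log2 fold change 2.18). Of the members themselves *Itga2b* (0.27) and *Pf4* (0.33) lay nearest to that mean and *Gp6* (2.29) farthest from it. *Itga2b* and *Pf4* entered that mean and *Gp6* did not, so this order was partly set beforehand. Only 4 arrays in 2 groups enter this distance.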

How the data were processed

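RNA of sorted cells was labelled with biotin and hybridised to Affymetrix exon arrays (SOX7::GFP high, 2 arrays, and SOX7::GFP low, 2 arrays, grouped by the sample titles). Values on the log2 scale for 1236087 probe sets were deposited by the authors, who had processed the arrays with RMA, which corrects background, normalises and summarises probes (its version is not given in the sources used). Array medians were 3.90 to 3.91. Arrays give signal over background and no counts, and their number limits the precision. Low values were held out by a filter, under which a probe set needed 5.04 on its second-highest array. The platform annotation gave 1 symbol for 321091 probe sets, several for 7796 and none for 907200, and probe sets with several or no symbol were left out. Of 22378 symbols, 18054 were current in the GRCm38.p6 gene table and 4259 were updated. The 191615 kept probe sets were averaged to 18762 genes, with a median of 7 probe sets per gene.

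Limma 3.58.1 in R 4.3.3 fitted both groups over all genes, and separately over all kept probe sets, with p-values adjusted over the whole table (Benjamini-Hochberg). A gene was called at an adjusted p under 0.05 and at least 2-fold. The fit was tested on simulated data. Promoters come from RefSeq. Summed marker levels add the values after removing the log.

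The members and the gene lists were chosen with earlier results of these data known. Named are all 9 members, up to 4 called genes of each list by size of change (or 2 where none was called), *Sox7* and the 5 genes of most similar pattern. *Vav3*, *Fyn*, *Syk*, *Tln1*, *F2rl3*, *P2ry1*, *Cd226*, *Tbxa2r*, *P2ry12*, *Selp*, *F11r*, *F2r*, *F2rl2*, *Clec1b*, *Vwf*, *Rab27b*, *Mef2c*, *Nfe2*, *Tal1*, *Gata1*, *Fli1*, *Flt3*, *Prss34*, *Slc6a4* and the genomic neighbours were named after their values were seen. The alternatives were other filters, a gene value as the median or over at least 3 probe sets, quantile normalization, arrays centred on reference genes, trend-robust limma, the methods' t-test, a replicate block, adjusted p alone and leaving out each array.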

Additional observations from a re-analysis of the deposited data

How the results depend on the processing

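Leaving out 1 array in turn gave 311 to 717 called genes, 0 to 5 called members and 0 to 10 called member probe sets, against 1286, 5 and 39 with all 4 arrays. The counts of called genes were 311 without replicate 1 and 400 without replicate 2 of SOX7::GFP high cells, and 717 without replicate 1 and 644 without replicate 2 of SOX7::GFP low cells. Fewer arrays leave fewer residual degrees of freedom. No member probe set was called without either SOX7::GFP high array, though 62 and 57 of 78 were higher at an unadjusted p under 0.05 (limma) without replicate 1 and without replicate 2.

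The methods' t-test called 0 genes and 0 members after adjustment. At an unadjusted p under 0.05 and at least 2-fold it gave 628 genes higher, 5 of them members. Trend-robust limma called 7 members higher, and 732 of all 18762 genes. The same labels of replicate 1 and 2 in both groups mark no shared culture or day in the sources, and differences between replicates correlated at 0.10 across genes over only 2 pairs, so the numbers were not taken to pair the arrays. Among the 9 members, replicate 2 was the higher for 6 in SOX7::GFP high cells and for 7 in SOX7::GFP low cells. With a replicate block 1346 genes, 6 members and 39 member probe sets were called, *Gp1bb* being added (adjusted p = 0.0257, limma). The block lowered the SE of *Gp5* from 0.35 to 0.16 and that of *Gp9* from 0.51 to 0.26. It raised those of *Gp1ba*, *Gp6* and *Itgb3*. Of the 23 other platelet receptors the block called 13 higher, against 9 without it, with *F11r*, *F2r*, *F2rl2* and *Selp* added (adjusted p = 0.0314 for *Selp*, limma).

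*Gp6* changed sign, with a log2 fold change of 0.17 where probe sets had to reach the filter value on every array, and values from -0.25 to 0.026 with 1 array left out. *Ppbp* was lost under that stricter filter. *Ppbp* and *Gp6* had no value under the filter that kept only the brighter probe sets, and *Gp5* had none with at least 3 probe sets per gene, so these stand in no count below. *Gp1ba* was called under 5 and *Gp1bb* under 4 of the 11 other alternatives. Of the 132 member values under alternatives, 107 kept their direction and their side of the threshold, 9 gained the call, 14 lost it and 2 changed sign. Values near 5, such as those of *Ppbp*, *Gp1ba* and, on replicate 1, *Gp5* in SOX7::GFP low cells, lie close to background. They limit the fold that can be seen.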
